A study of Arabidopsis thaliana with 6 samples.

Results

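The clade A protein phosphatases 2C (PP2C) of Arabidopsis were followed in RNA-Seq counts from roots given the synthetic cytokinin 6-benzylaminopurine (BAP). The family comprised 9 genes, ABI1, ABI2, HAB1, HAB2, AHG1, AHG3, HAI1, HAI2 and HAI3, taken by locus identifier from the 33602 genes listed in the files. All 6 libraries came from primary roots of the ipt1,3,5,7 mutant at 7 d, which carries mutations in 4 isopentenyltransferase genes of cytokinin synthesis, in controls and treated plants alike. The control libraries (DMSO 1, DMSO 2 and DMSO 3) were harvested 1 h after transfer to medium with the solvent dimethyl sulfoxide (DMSO), and the treated libraries (BAP 1, BAP 2 and BAP 3) 4 h after transfer to 1 µM BAP. Root tips and lateral roots had been removed. Treatment and time after transfer therefore changed together and cannot be told apart in any comparison here, and no wild-type library was analysed here.

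PP2Cs of clade A are the brake of the abscisic acid (ABA) pathway. Without ABA they bind and dephosphorylate SnRK2 kinases and hold them inactive. When ABA binds a receptor of the PYR/PYL family, the receptor docks onto the phosphatase and blocks its active site, the kinases become active, and they phosphorylate transcription factors of the ABF/ABI5 group, which bind ABA-responsive elements (ABREs) in promoters. Several of these phosphatase genes are themselves ABA-induced, so that their transcripts are part of a feedback loop and are commonly read as ABA-responsive transcripts. ABA is best known for its action in seeds, guard cells and drought-stressed tissue, and it also acts in roots.

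The proteins fall into close pairs. Over the 36 pairs of the 9 proteins, translated from the RefSeq coding sequences and aligned, identity ranged from 36.1% to 79.8%. ABI1 and ABI2 shared 79.8% of aligned residues, HAB1 and HAB2 shared 74.8%, and HAI2 and HAI3 shared 70.7%. HAI1 was closest to HAI3 (64.6%), and AHG3 was closest to HAI1 (60.9%). AHG1 shared 36.6% to 47.0% with the others and had no partner as close as these. One position separates AHG1 from the rest of the family in a feature of known function. In the other 8 proteins a tryptophan, residue 300 of ABI1, reaches into the bound receptor and contacts its closed gate, and AHG1 has valine there, at residue 290. The coding bases around that position are shown because they carry this difference within the family. They are 30 bases of the coding strand of each gene, read 5′ to 3′ from the TAIR10.1 genome with RefSeq annotation, with the codon at the position in capitals (TGG for tryptophan, GTG for valine).
ABI1 (chr4:13220710-13220739, minus strand): gtgattcagTGGaatggagctcgtgttttc
ABI2 (chr5:23088806-23088835, plus strand): gtaatccggTGGaacggggctcgtgtattt
HAB1 (chr1:27392336-27392365, plus strand): gttatacaaTGGcaaggcgcacgtgttttt
HAB2 (chr1:6036353-6036382, plus strand): gttatacaaTGGcaaggcgctcgtgtttct
AHG1 (chr5:21027906-21027935, plus strand): gttttagtaGTGgatggagctagagttgaa
AHG3 (chr3:3584615-3584644, minus strand): gttatatatTGGgatggagctagggttctt
HAI1 (chr5:23895188-23895217, minus strand): gttatctacTGGgatggcccacgtgtcctt
HAI2 (chr1:2281586-2281615, minus strand): gtgatatacTGGgacggtgcaagagtctta
HAI3 (chr2:12609771-12609800, plus strand): gtcatatatTGGgactgtccaagagttctc
The glycine that is replaced in the dominant abi1-1 allele, residue 180 of ABI1, was glycine in all 9 proteins.

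Total counts were 19957748 to 20127269 per library, and 24197 to 24516 genes had at least 1 read. Levels are given as CPM, that is read counts per 1000000 of the TMM-scaled library total, so that 1 read equalled 0.0480 to 0.0522 CPM. A level of 3 reads, the approximate upper limit at 95% confidence for a count of 0, equalled 0.144 to 0.157 CPM. Means are given with their SD for n = 3 libraries per group. The study describes the libraries as biological replicates, and the labels do not say which plants or plates each came from, so the p-values measure the spread between these libraries. All 9 genes passed the filter on low counts, HAI3 through its DMSO libraries alone, in which it was high. The exons of 7 members shared no 32-base word with another gene, the shares in HAB1 and HAB2 were 0.105% and 0.114%, and no member overlapped another gene in the files.

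One control library stood apart for this family. DMSO 2 was the highest DMSO library and DMSO 1 the lowest for 8 of the 9 members, the exception being AHG1. Over all genes tested DMSO 2 was highest for 34.0%, and had DMSO 1 lowest as well for 17.5%. The pattern was not particular to the family. DMSO 2 was also highest for 7 of 8 tested ABF/ABI5 genes, 7 of 10 SnRK2 genes and 19 of 20 ABA-induced genes. Among the PYR/PYL genes it was highest for 2 of 9. The highest DMSO value was 1.42 to 8.37 times the lowest among the members, against a median of 1.18 over all genes tested. Among the BAP libraries this ratio was 1.08 to 1.40 for 7 members and 3.86 and 5.38 for the rarely counted HAI3 and HAI2, against a median of 1.18. Markers of other root cell types also differed between the controls. All 4 root hair markers were highest in DMSO 1 and lowest in DMSO 2, the reverse of the phosphatases, with summed levels of 100.7, 28.95 and 50.5 CPM in DMSO 1, DMSO 2 and DMSO 3 and 71.2 to 88.2 CPM in BAP. All 5 endodermis markers were highest in DMSO 1, with summed levels of 98.9, 67.4 and 64.0 CPM. The part of these cell types in the spread of the phosphatases was not tested. The fold change of each member is also given without DMSO 2.

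Most of the family was lower after 4 h BAP. Of the 9 genes, 7 were called lower and 0 higher, where a call needed an adjusted p of at most 0.05 in the quasi-likelihood test of edgeR and a difference of 0.5 or more on the log2 scale in either direction. In the same test 11.4% of the 20987 genes tested were called lower and 11.6% higher. The genes called were ABI1, ABI2, HAB1, HAB2, AHG3, HAI1 and HAI3, and in each of them every BAP library was below every DMSO library, as it was for 26.6% of all genes tested. HAI2 and AHG1 were not called, and their groups overlapped. HAI3 was tested only because its DMSO libraries, the group where it was high, passed the filter, which limits its place in these counts. With no filter beyond 1 read the number of members called lower was also 7. The median log2 fold change of the members was -1.36, and that of all genes tested was 0.00. Without DMSO 2 the same 7 genes were called lower, with log2 fold changes from -3.35 to -0.73 in place of -4.33 to -1.02. In these root segments, fewer cells that express a gene and less RNA per cell cannot be told apart.

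**Figure D1:**
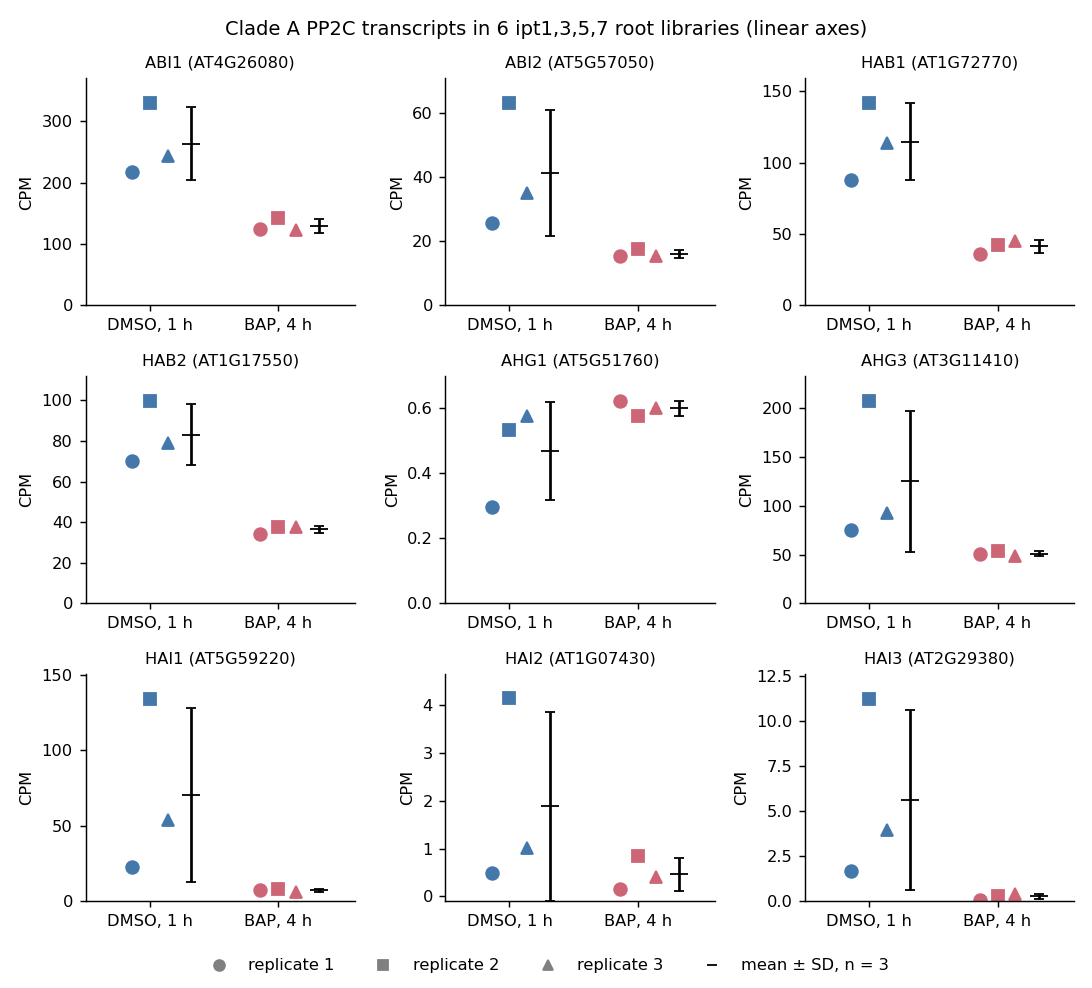
Level of each clade A PP2C gene in CPM (linear axes) in the 3 DMSO 1 h libraries (blue) and the 3 BAP 4 h libraries (red), with replicate numbers as symbols and the mean ± SD (n = 3) beside them. In 8 of the 9 panels the square of DMSO 2 is the highest DMSO point, and for all genes but AHG1 and HAI2 every red point lies below every blue one.

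ABI1 and ABI2 are the founding members, named for the dominant ABA-insensitive mutants in which they were found. ABI1 (AT4G26080, TAIR10 chr4:13219961-13222284, minus strand) stood at 218, 330.5 and 244 CPM in the controls and at 124, 143 and 122 CPM after BAP. The BAP libraries were alike and all lay well under the lowest control. The mean fell from 264.0 ± 59.1 to 129.8 ± 11.6 CPM, with a log2 fold change of -1.02 ± 0.15 (SE) and an edgeR adjusted p of 9.05e-04. ABI2 (AT5G57050, chr5:23087235-23089627, plus strand) had 25.6, 63.2 and 35.0 CPM in DMSO and 15.3, 17.4 and 15.6 CPM in BAP. Its controls spanned a 2.46-fold range with DMSO 2 alone at the top, whereas its BAP values spanned a 1.14-fold range. ABI2 fell from 41.3 ± 19.5 to 16.1 ± 1.19 CPM, and its log2 fold change was -1.36 ± 0.29 (edgeR adjusted p of 0.00639). Without DMSO 2 the log2 fold changes were -0.84 for ABI1 (edgeR adjusted p of 3.80e-04) and -0.93 for ABI2 (0.00164).

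HAB1 and HAB2, named for homology to ABI1, are a second pair of broadly expressed phosphatases, and loss of HAB1 makes plants hypersensitive to ABA. HAB1 (AT1G72770, chr1:27390022-27393281, plus strand) had 87.9, 142 and 114 CPM in DMSO and 36.1, 42.6 and 45.2 CPM in BAP. Its lowest control was 1.95 times its highest BAP value. It fell from 114.5 ± 26.9 to 41.3 ± 4.64 CPM, for a log2 difference of -1.47 ± 0.17 (edgeR adjusted p of 2.19e-04). HAB2 (AT1G17550, chr1:6034362-6037289, plus strand) had 70.3, 99.8 and 79.0 CPM in DMSO and 34.3, 37.5 and 37.4 CPM in BAP. HAB2 had the least spread control values of the family, and its lowest control was 1.88 times its highest BAP value. It fell from 83.0 ± 15.1 to 36.4 ± 1.81 CPM, by 1.19 ± 0.12 on the log2 scale (edgeR adjusted p of 1.42e-04). Without DMSO 2 the log2 fold changes were -1.30 for HAB1 (edgeR adjusted p of 2.72e-04) and -1.05 for HAB2 (8.50e-05).

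AHG3, also called PP2CA, restrains ABA responses in germination and acts on ion channels of guard cells. AHG3 (AT3G11410, chr3:3583883-3585790, minus strand) had 74.8, 207 and 92.8 CPM in DMSO and 50.7, 53.3 and 48.3 CPM in BAP. DMSO 2 stood at 2.77 times DMSO 1, and the BAP libraries were nearly equal. AHG3 fell from 124.9 ± 71.9 to 50.8 ± 2.51 CPM, and its log2 fold change was -1.30 ± 0.33 (edgeR adjusted p of 0.0150). Without DMSO 2 its log2 fold change was -0.73 with an edgeR adjusted p of 0.00110, so that the size of its difference rested in part on that library. Its call was lost when BAP 3 was left out, at a log2 fold change of -1.26 and an edgeR adjusted p of 0.0514. AHG1, which lacks the tryptophan, is known mainly from seeds, where it holds back the ABA response in germination and is little inhibited by the receptors. AHG1 (AT5G51760, chr5:21026916-21029188, plus strand) was close to the limit of these libraries, with 6, 11 and 12 reads counted in DMSO, against 12, 11 and 12 in BAP. These counts gave 0.467 ± 0.149 CPM in DMSO and 0.598 ± 0.0230 CPM in BAP. Its log2 fold change of 0.35 ± 0.33 was not called (edgeR adjusted p of 0.452), and the ratio of its counts, BAP over DMSO, was 1.27 with a 95% exact interval of 0.757 to 2.16, which covers counting error only. Without DMSO 2 its log2 fold change was 0.43 (edgeR adjusted p of 0.461), and at this depth a difference within the interval was not detectable for AHG1.

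HAI1, HAI2 and HAI3 are named as highly ABA-induced phosphatases, and they are also known as drought-responsive genes. HAI1 (AT5G59220, chr5:23894404-23896619, minus strand) had 22.6, 134 and 53.8 CPM in DMSO and 7.45, 8.36 and 5.98 CPM in BAP. The controls ran over a 5.94-fold range, and yet the lowest of them was 2.71 times the highest BAP value. HAI1 fell from 70.2 ± 57.6 to 7.26 ± 1.20 CPM, and its log2 fold change was -3.28 ± 0.59 (edgeR adjusted p of 0.00281). Among all genes tested, 0.243% had a lower log2 fold change than HAI1.

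HAI3 (AT2G29380, chr2:12608702-12610167, plus strand) was counted 34, 233 and 82 times in the controls and 2, 6 and 8 times after BAP. These counts were 1.68, 11.2 and 3.93 CPM against 0.103, 0.313 and 0.399 CPM, and BAP 1 was below the level of 3 reads. HAI3 was thus near the detection limit after BAP, and the ratio of its counts, BAP over DMSO, was 0.0484 with a 95% exact interval of 0.0274 to 0.0798 for counting error only. Its log2 fold change of -4.33 ± 0.84 (edgeR adjusted p of 0.00419) was the lowest of the family, and 0.0858% of all genes tested had a lower one. That rank carries the limit that HAI3 passed the filter through its DMSO libraries alone. HAI2 (AT1G07430, chr1:2280835-2282828, minus strand) was counted 10, 86 and 21 times in the controls and 3, 16 and 8 times after BAP. BAP 2, with 0.836 CPM, exceeded DMSO 1, with 0.495 CPM, so the groups overlapped. HAI2 had a mean of 1.88 ± 1.98 CPM in DMSO and 0.463 ± 0.345 CPM in BAP, and its log2 fold change of -2.02 ± 0.84 had an unadjusted p of 0.0414 and an adjusted p of 0.0917 in edgeR. HAI2 was called by the DESeq2 Wald test (-2.02, adjusted p of 0.0267) and not by the main edgeR fit. It was called by edgeR without DMSO 1 (adjusted p of 0.0286) and with the replicate number as a block (0.00202).

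DMSO 2 weighed most on these 3 genes. Without it the log2 fold change was -2.41 for HAI1 (edgeR adjusted p of 0.00120), -3.35 for HAI3 (0.00234) and -0.71 for HAI2 (0.417). HAI1 and HAI3 were still called lower, whereas the HAI2 value rested largely on 1 library with 86 of its 117 control counts.

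**Figure D2:**
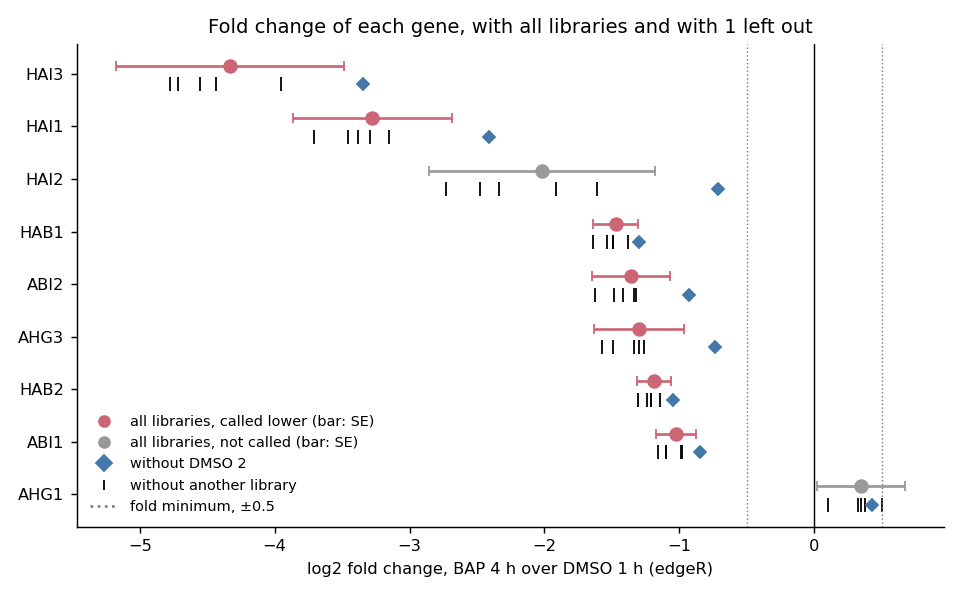
Log2 fold change of each gene, BAP 4 h over DMSO 1 h, from edgeR, with all 6 libraries (circle, bar ± SE), without DMSO 2 (diamond) and without each other library (ticks), where dotted lines mark the fold minimum of 0.5. For the 8 genes below 0, leaving out DMSO 2 gave the value nearest to 0, and for 7 of them that value was still called, the exception being HAI2.

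Levels were compared between genes per kilobase of the longest RefSeq transcript, in CPM per kilobase. In DMSO the order of the mean levels was ABI1 (122 ± 27.2), AHG3 (69.4 ± 39.9), HAB1 (41.0 ± 9.64), HAI1 (36.0 ± 29.5), HAB2 (31.4 ± 5.73), ABI2 (18.2 ± 8.63), HAI3 (3.75 ± 3.34), HAI2 (0.987 ± 1.04) and AHG1 (0.298 ± 0.0953). Only ABI2 and HAI3 were neighbours whose 3 control libraries did not overlap, so the controls separated 6 common transcripts from 3 rare ones, and neighbours within either set overlapped. In BAP the order became ABI1 (59.8 ± 5.33), AHG3 (28.2 ± 1.39), HAB1 (14.8 ± 1.66), HAB2 (13.8 ± 0.685), ABI2 (7.11 ± 0.524), HAI1 (3.72 ± 0.614), AHG1 (0.381 ± 0.0147), HAI2 (0.243 ± 0.181) and HAI3 (0.182 ± 0.102). After BAP all neighbours were separated except HAB1 from HAB2, AHG1 from HAI2, and HAI2 from HAI3. HAI1 stood above HAB2 and ABI2 by its mean in DMSO, with overlap, and below both in BAP, without overlap.

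The summed level of the 9 genes was 224, 463 and 281 CPM per kilobase in the controls and 122, 138 and 124 after BAP. The mean of 128 ± 8.53 in BAP was 39.7% of the mean of 323 ± 124.5 in DMSO, and the groups did not overlap. ABI1 made up 32.9% to 44.7% of the sum in DMSO and 45.3% to 47.8% in BAP, the largest share in every library. AHG3 followed with 18.3% to 24.9% and 21.5% to 23.0%. HAI1 held 5.16% to 14.9% in DMSO, with the highest share in DMSO 2, and 2.46% to 3.12% in BAP. HAI3 held 0.501% to 1.62% in DMSO and 0.0565% to 0.214% in BAP. The shares of HAI1 and HAI3 were lower in every BAP library than in every control, those of ABI1 and AHG1 were higher, and those of ABI2, HAB1, HAB2, AHG3 and HAI2 overlapped between the groups. Shares in a sum depend on each other, and no test was made of them.

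**Figure D3:**
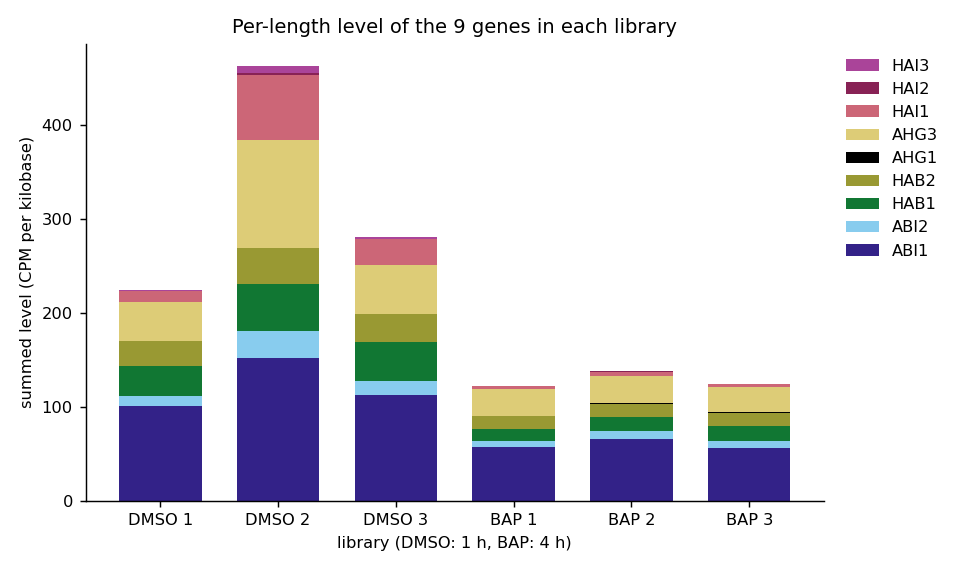
Summed level of the 9 clade A PP2C genes in each library, in CPM per kilobase of transcript, with 1 colour per gene. DMSO 2 reaches 463 against 224 and 281 in the other controls, and the BAP libraries stand at 122 to 138 with ABI1 and AHG3 as the tallest segments.

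Promoters of the family were searched for the ABRE core, ACGTG on either strand, because ABF/ABI5 factors bind it. Windows ran from 250 bases before to 50 bases after the RefSeq gene start in TAIR10.1, and a CACGTG counted as a pair of overlapping matches. The core was present in 6 of the 9 members and in 26.9% of 26711 windows over the genome. AHG3 had 5 matches, AHG1 and HAI2 had 4 each, HAB2 and HAI3 had 2 each, HAB1 had 1, and ABI1, ABI2 and HAI1 had none. The longer form ACGTGTC was present in 3 members and in 4.41% of windows, and ACGTGGC in 1 member and in 4.14%. The dehydration-responsive core CCGAC was found in 2 members and in 15.0% of windows. AGATT, the core bound by the type-B response regulators of cytokinin signalling, was found in 6 members and in 69.6% of windows. HAI1 has a second RefSeq transcript whose start lies 237 bases inside the gene, and a window set on that start, examined after the first result was seen, held 3 matches. The files end HAI1 at position 23896619, nearer to this second start (23896702) than to the RefSeq gene start (23896939). The count of 6 of 9 members thus holds for the RefSeq gene starts. The 200 bases upstream of the gene start are shown for AHG3, which had the most matches, for HAI3, which had the lowest fold change, and for HAI1, which had none at its gene start, with ABRE cores on either strand in capitals.
AHG3 (chr3:3585851-3586050, minus strand): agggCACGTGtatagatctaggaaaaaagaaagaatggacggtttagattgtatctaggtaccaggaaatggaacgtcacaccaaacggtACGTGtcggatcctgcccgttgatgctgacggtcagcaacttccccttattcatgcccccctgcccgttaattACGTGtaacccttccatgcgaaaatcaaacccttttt
HAI3 (chr2:12608475-12608674, plus strand): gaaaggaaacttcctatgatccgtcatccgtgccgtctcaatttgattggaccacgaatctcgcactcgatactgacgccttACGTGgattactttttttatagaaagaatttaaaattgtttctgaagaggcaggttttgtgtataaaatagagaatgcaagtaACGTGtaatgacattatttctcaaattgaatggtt
HAI1 (chr5:23896940-23897139, minus strand): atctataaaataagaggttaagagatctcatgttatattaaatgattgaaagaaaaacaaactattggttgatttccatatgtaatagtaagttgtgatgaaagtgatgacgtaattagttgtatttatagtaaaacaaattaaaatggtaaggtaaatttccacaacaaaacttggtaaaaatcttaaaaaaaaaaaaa
A match is a description of the letters in the window and was not tested for binding.

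Other PP2C genes were compared with clade A, using the 64 further genes whose RefSeq name or product contains the name of the class. Of the 59 tested, 9 were called lower (15.3%) and 7 higher, beside 11.4% and 11.6% of all genes tested. Their median log2 fold change was -0.10, where clade A had 77.8% called lower and a median of -1.36. The 7 called higher became 4 without DMSO 1 or DMSO 2 and 2 without BAP 2. Clade D members dephosphorylate the plasma membrane proton pump and are inhibited by SAUR proteins. Of the 9 genes of clade D, 1 was called lower (11.1%, near the share over all genes) and 0 higher, with a median of -0.19. The gene called was PP2C.D9 (AT5G06750), from 68.0 ± 3.08 to 44.4 ± 2.04 CPM, with a log2 fold change of -0.62. AT3G16800 fell most among the other PP2C genes, from 322 ± 26.9 to 64.2 ± 11.9 CPM, and its log2 fold change was -2.33 ± 0.13 (edgeR adjusted p of 6.34e-06). PP2C52 (AT4G03415) rose from 12.4 ± 0.964 to 28.4 ± 2.53 CPM, and its log2 fold change was 1.20 ± 0.10 (edgeR adjusted p of 3.61e-05). DMSO 2 was the highest control for 28 of these 59 genes (47.5%), beside 8 of 9 in clade A.

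The receptors that act on the phosphatases are the PYR/PYL proteins. Of 14 PYR/PYL genes 9 were tested, and 2 were called higher and 1 lower (11.1%), beside 11.6% and 11.4% of all genes tested. Their median log2 fold change was 0.16. The number higher was 1 without BAP 1 or BAP 3, and the number lower was 2 without DMSO 2 or any of the BAP libraries. PYL6 (AT2G40330) had 9.20, 2.89 and 9.54 CPM in DMSO and 43.9, 52.7 and 45.0 CPM in BAP, and rose by a log2 fold change of 2.71 ± 0.33 (edgeR adjusted p of 3.15e-04). PYL4 (AT2G38310) rose from 52.5 ± 23.0 to 97.2 ± 4.39 CPM, by 0.89 ± 0.26 on the log2 scale (edgeR adjusted p of 0.0285). In both receptor genes DMSO 2, the library with the highest phosphatase transcripts, was the lowest control. PYL9 (AT1G01360) fell from 21.4 ± 5.41 to 12.0 ± 0.699 CPM, and its log2 fold change was -0.83 ± 0.17. In PYL9 DMSO 2 was the highest control, at 27.4 CPM against 19.8 in DMSO 1 and 16.9 in DMSO 3. Over the 9 tested receptors DMSO 1 was the highest control for 6, DMSO 2 for 2 and DMSO 3 for 1.

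The SnRK2 kinases include the substrates of the phosphatases. Of 10 genes tested, 3 passed the test as lower (30%) and 0 as higher, beside 11.4% and 11.6% of all genes tested. Their median log2 fold change was -0.01, and without DMSO 2 only 1 was called lower. Of the 3 kinases that ABA activates most strongly, SnRK2.6 (AT4G33950), the kinase of guard cell closure, fell from 24.1 ± 2.52 to 14.0 ± 2.07 CPM, and its log2 fold change was -0.78 ± 0.12 (edgeR adjusted p of 0.00148). SnRK2.2 (AT3G50500) had a log2 fold change of 0.08 ± 0.06 (edgeR adjusted p of 0.334) and SnRK2.3 (AT5G66880) one of 0.19 ± 0.07 (0.0672), neither called. SnRK2.7 (AT4G40010), a kinase that ABA activates weakly, fell by 0.76 ± 0.21 on the log2 scale.

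Downstream of the kinases are the ABF/ABI5 transcription factors. Of 8 ABF/ABI5 genes tested, 2 passed the test as lower (25%) and 1 as higher, beside 11.4% and 11.6% of all genes tested. Their median log2 fold change was -0.25. Without BAP 2 the number higher was 2. ABF2 (AT1G45249) had 52.8, 96.9 and 61.3 CPM in DMSO and 28.3, 29.1 and 23.8 CPM in BAP, with the same order of control libraries as the phosphatases, and fell by 1.38 ± 0.21 on the log2 scale (edgeR adjusted p of 0.00116). ABF3 (AT4G34000) fell from 274 ± 46.9 to 123 ± 8.63 CPM (on the log2 scale, -1.15 ± 0.12, edgeR adjusted p of 1.50e-04), and ABF1 (AT1G49720) rose from 15.2 ± 1.91 to 49.9 ± 9.75 CPM (on the log2 scale, 1.71 ± 0.15, edgeR adjusted p of 5.86e-05).

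ABA-induced genes outside the family had 13 of 20 tested members called lower (65%) and 3 higher, beside 11.4% and 11.6% of all genes tested. Their median log2 fold change was -1.57. The 13 included LEA4-5 (AT5G06760), a late embryogenesis abundant protein, which fell from 66.2 ± 34.4 to 2.21 ± 0.872 CPM, and its log2 fold change was -4.90 ± 0.45 (edgeR adjusted p of 6.85e-05). AFP1 (AT1G69260), an ABI5 binding protein, fell by 2.73 ± 0.31 on the log2 scale, and the dehydrin COR47 (AT1G20440) by 1.36 ± 0.19. KIN2 (AT5G15970) rose from 137 ± 23.6 to 413 ± 63.7 CPM. EM6 (AT2G40170), a seed protein also called higher, was counted 2, 7 and 10 times in the controls and 13, 27 and 17 times after BAP. The number called higher was 2 in place of 3 without DMSO 1, DMSO 2, BAP 2 or BAP 3, and with genes filtered at a mean of 1 CPM, which EM6 does not reach. DMSO 2 was the highest control in 19 of these 20 genes, and without it the number called lower was also 13. The summed level of the list was 4818 to 7229 CPM in DMSO and 2286 to 3133 CPM in BAP. Its part in the difference of the phosphatases was not tested.

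**Figure D4:**
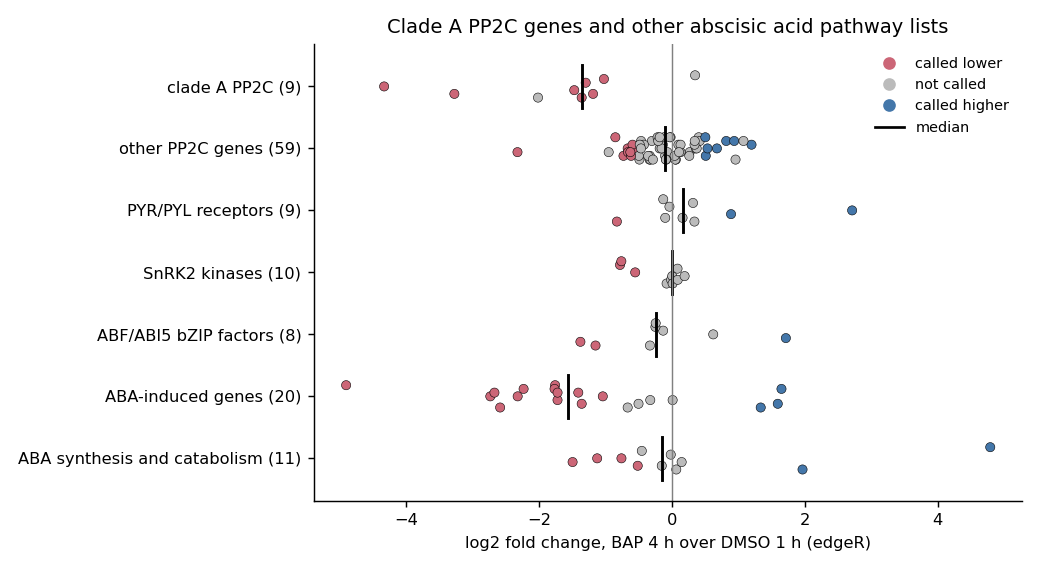
Log2 fold change, BAP 4 h over DMSO 1 h, of every tested gene in clade A and in 6 other lists, with calls in colour, the median as a black bar and the number of genes tested in parentheses. The medians of clade A (-1.36) and of the ABA-induced genes (-1.57) lie left of the other lists, whose medians lie between -0.25 and 0.16.

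Among 11 tested genes of ABA turnover, 4 were called lower (36.4%) and 2 higher, beside 11.4% and 11.6% of all genes tested. Their median log2 fold change was -0.15. The number lower was 2 without DMSO 2, DMSO 3 or BAP 3. CYP707A3 (AT5G45340), which starts ABA breakdown, fell from 177 ± 17.7 to 62.6 ± 13.4 CPM, while its relative CYP707A4 (AT3G19270) rose from 0.339 ± 0.124 to 9.55 ± 0.290 CPM, by 4.79 ± 0.20 on the log2 scale (edgeR adjusted p of 1.41e-06). In synthesis, ABA1 (AT5G67030), the zeaxanthin epoxidase, fell by 1.13 ± 0.11 on the log2 scale and NCED2 (AT4G18350) rose by 1.96 ± 0.31. Regulators of the phosphatase proteins include ubiquitin ligases that mark them for breakdown. Of 6 tested regulators, 1 passed the test as lower (16.7%, beside 11.4% of all genes tested) and 0 as higher. The number lower was 2 without DMSO 2, BAP 2 or BAP 3. The gene called with all libraries was EAR1 (AT5G22090), which enhances the activity of the phosphatases, with 264 ± 17.5 CPM in DMSO and 163 ± 7.07 CPM in BAP.

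The transcripts with a profile shape most like the family were found by Pearson's r of log2 CPM over the 6 libraries. The search covered 19797 genes whose mean reached 1 CPM, as a description over 2 groups, and r does not measure the size of a change. With the mean profile of the members, r was 0.997 for AT1G70590, an F-box protein gene, for VEL1 (AT4G30200), for AT2G41200 and for AT3G07310, and 0.996 for TDT (AT5G47560), the tonoplast dicarboxylate transporter. With ABI1, the most abundant member, r was 0.999 for AT3G61480, and 0.998 for EDR1 (AT1G08720), AT1G78070, NTMC2T6.2 (AT3G14590) and OBP4 (AT5G60850). Log2 fold changes of the first 5 genes ran from -1.06 (AT3G07310) to -0.22 (AT1G70590), beside the median of -1.36 for the members. Those of the 5 genes nearest to ABI1 ran from -2.12 (AT1G78070) to -0.19 (AT3G61480), beside -1.02 for ABI1. Such values of r were common, since 472 genes had an r over 0.95 with the mean profile and 1100 with ABI1.

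Other lists were read beside the family as checks. Their counts stand beside 11.4% of all genes tested called lower and 11.6% called higher. All 9 tested type-A response regulators, the primary cytokinin response genes, passed the test as higher, and their median log2 fold change was 2.64. Clock genes differed in both directions (3 lower and 5 higher of 9), among them LHY (-3.24) and PRR5 (2.75), and of 7 touch and wounding genes 2 were called lower and 1 higher, or 3 higher without DMSO 3 or with the replicate number as a block and 4 without BAP 1. DMSO 3, not DMSO 2, was the highest control in all 7 of the latter. Endodermis markers, at 78.2 to 116 CPM summed in BAP, had CASP4 and CASP2 called higher and CASP5 lower of 5, with 1 gene called higher without DMSO 2, DMSO 3, BAP 2 or BAP 3. Of 4 root hair markers 1 was called higher, or 3 without DMSO 1 and 0 without any other single library. Root tip markers summed to 28.8 to 33.2 CPM in DMSO and to 19.9 to 27.5 CPM in BAP, without overlap. Of the 6, WOX5 and PLT2 were called lower, and 1 gene was called lower without DMSO 3 or BAP 2. Transcripts of root tip markers were thus counted in every library, although removal of root tips is stated for this tissue. Guard cell markers, of which 0 of 3 tested were called, summed to 24.8 to 33.7 and 24.9 to 32.3 CPM, nearly all from GORK, which roots also express. Leaf photosynthesis markers stood at 32.3 to 39.7 CPM in DMSO and at 41.1, 39.7 and 79.8 CPM in BAP 1, BAP 2 and BAP 3, so that BAP 3 stood apart, with 2 of 6 called higher, and 0 or 1 gene called higher when a control library was left out. Of 5 seed markers 0 were tested and 3 had no read in any library. The part of these lists in the differences of the phosphatase genes was not tested.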

How the data were processed

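RNA-Seq libraries of 3 DMSO 1 h and 3 BAP 4 h roots were grouped by their labels. The deposited files hold raw counts per gene, which the authors obtained by mapping reads with Bowtie2 and counting with HTSeq on TAIR10 per the submitters' processing notes, and whose use of strand and of multiply mapped reads is not given in the sources used here. The kit does not mark strand. The filter filterByExpr, at a minimum count of 10 and a total of 15, left out 12615 genes, and the others were tested with edgeR 4.0.16 (TMM, quasi-likelihood F test, treatment alone) in R 4.3.3, with Benjamini-Hochberg adjustment over all 20987. The SE was the size of the log2 fold change divided by the square root of F. Proteins were translated from RefSeq and aligned with MAFFT 7.526. Coordinates of genes are those of the files, counted from 1, and sequences were read from TAIR10.1, with no conversion between builds. All 9 members matched RefSeq.

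The members and lists were chosen with earlier results of these data known. The text names every member and, from each other list, in each direction up to 2 called genes that changed most, the most abundant gene and the 3 kinases SnRK2.2, SnRK2.3 and SnRK2.6, and omits some of those from the check lists. The nearest profiles are the 5 genes with the highest r. Alternatives were DESeq2 1.42.0 (Wald test, size factors), upper-quartile scaling, other filters and thresholds, the replicate number as a block, the union of exons as length and each library left out in turn. The window on each transcript start was added after the data were seen.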

Additional observations from a re-analysis of the deposited data

How the results depend on the processing

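Of the 107 fold changes of members computed under alternatives, 0 reversed and 4 changed call. AHG3 ran from -1.58 to -0.73 on the log2 scale when single libraries were left out, with edgeR adjusted p of 0.00110 to 0.0514, and lost its call without BAP 3. HAI2 ran from -2.73 to -0.71 and was called without DMSO 1 (-2.48, edgeR adjusted p of 0.0286), by the DESeq2 Wald test (-2.02, adjusted p of 0.0267) and with the replicate block (-1.94, edgeR adjusted p of 0.00202). Same-numbered libraries deviated together with r of 0.21, 0.05 and 0.27, and differently numbered ones with r of -0.27 to 0.05. The labels do not say whether same-numbered libraries were grown together, so these values leave a pairing open. The main fit did not use the number, and the fit with the number as a block changed the call of no member other than HAI2. The number of members called lower was 6 to 8 when single libraries were left out and 7 to 8 in the 6 other fits, 7 with no fold minimum or a minimum log2 fold change of 1, and 6 at an adjusted p of at most 0.01, with 0 called higher throughout. Over all genes, calls higher and lower were 3887 and 4061 with no fold minimum, 1099 and 1072 at a log2 minimum of 1, 2200 to 2387 and 2107 to 2496 when single libraries were left out, and 2303 to 2532 and 2252 to 2534 in the 6 other fits. No fit moved the median of all genes beyond 0.02. With the union of exons as length, all 18 group levels of members moved by less than 1 SD. Over the other fits and single libraries left out, 37 of the 408 counts of calls in the lists moved by over 1.5 times. Depth limits AHG1, HAI2 and HAI3, whose BAP libraries hold 2 to 16 counts.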
